A study of Mus musculus with 16 samples.

Results

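Tcf7, Lef1, Bach2, Satb1, Foxo1, Klf2, Il7r, Ccr7 and Cd44 are transcription factors and receptors by which memory-like and stem-like CD8+ T cells are usually recognised. They were taken by symbol, 9 of the 13275 genes of the RNA table, and all 9 passed the filter on low counts. In the ATAC peak lists, each gene was represented by a window, its gene body with 2 kb added on either side. Of the 94635 peak regions found when the peaks of 12 libraries were merged, 147 overlapped the 9 windows, and all 9 windows were among the 15436 gene windows tested.

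All cells came from Pmel-LC3-GFP-RFP mice, in which the T cell receptor is fixed on a melanocyte protein and a tandem LC3 reporter marks autophagosomes. T cells received anti-CD3 and anti-CD28 (2 µg/ml of each) plus 100 IU/ml IL2 over 3 days and carbon monoxide (CO) for 24 h, and were sorted as LC3-GFP positive or LC3-GFP negative. For the tumour libraries, C57BL/6 mice bearing B16-F10 melanoma, seeded with 300000 tumour cells 12 days earlier, received 300000 sorted cells, and each mouse's tumour gave 1 library of Vβ13+CD8+ cells 15 days after transfer. ATAC-seq, which marks open chromatin by the cuts of Tn5 transposase, covered 4 LC3-GFP positive and 4 negative tumour libraries and 2 positive and 2 negative libraries of the cells before transfer (in vitro). RNA-seq covered 2 positive and 2 negative in vitro libraries. Every group was CO treated, and no RNA from tumours was used here. Whether the in vitro replicates came from separate animals or cultures is not in the labels, so their p-values reflect the spread among these libraries alone, possibly a technical one. The tumour and in vitro ATAC libraries come from separate experiments with separate peak tables, so the setting and the experiment cannot be told apart.

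TCF-1, encoded by Tcf7, and LEF-1 are related DNA-binding proteins of the Wnt pathway that maintain naive, memory and stem-like CD8+ T cells. FOXO1 is held out of the nucleus by AKT signalling, and when active it favours transcription of Klf2, Il7r, Ccr7 and other genes of quiescent, recirculating cells. BACH2 restrains effector genes that AP-1 factors activate, and CD44 is the adhesion receptor that stays high after T cells have met antigen.

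The in vitro cells in both sorts carried open chromatin of the B lineage. Ebf1, a B lineage transcription factor, had 38651 and 28995 peak-covered bases in its window for in vitro positive cells and 19460 and 17688 for in vitro negative cells; the 8 tumour libraries had 398 to 2798. Summed over 9 B cell marker windows, the level was 149 to 292 covered bases per Mb of peaks in tumour libraries, and it was 1129 and 1132 for in vitro positive cells and 688 and 713 for in vitro negative cells. The 10 CD8 T cell marker windows summed to 1092 to 1296 per Mb in 7 tumour libraries and to 602 to 854 in the in vitro libraries. The other tumour library, LC3-GFP negative replicate 2, stood apart at 474 per Mb. It alone had peaks in the window of Lyz2, a macrophage gene (1453 bases), and it had 13219 covered bases at Mitf, the melanocyte lineage factor, where the other 11 libraries had 1045 to 2769. The myeloid and dendritic marker windows summed to 551 per Mb in it, against 252 to 358 in the other tumour libraries and 350 to 450 in vitro. The 9 melanoma and stroma marker windows, Mitf among them, summed to 480, within the tumour range of 377 to 483, so as a list they did not set it apart. Results that rest on tumour negative replicate 2 are given with and without it.

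**Figure D1:**
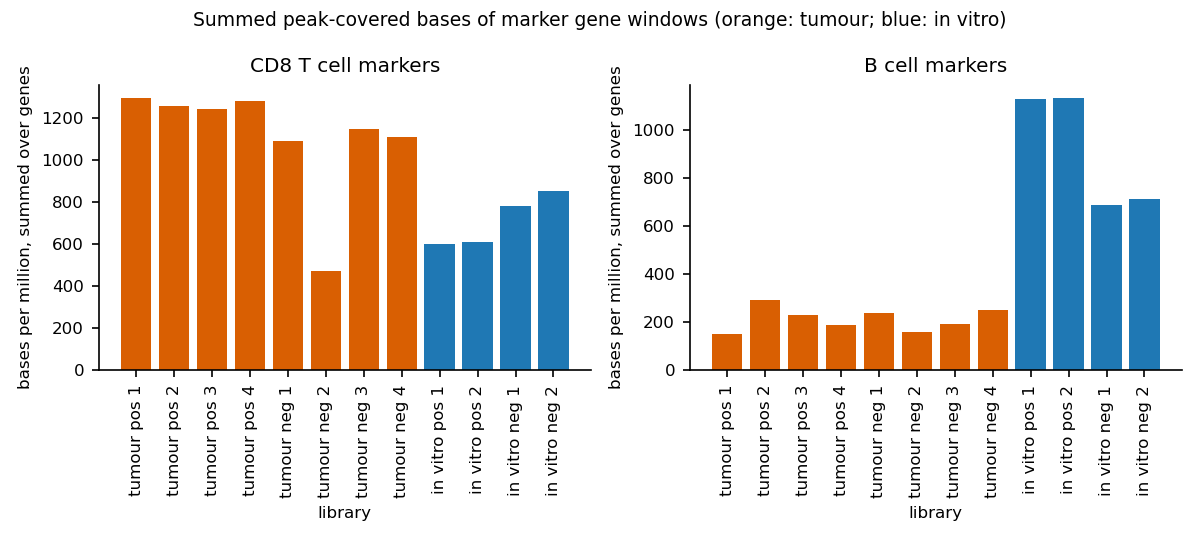
Bars give the peak-covered bases per Mb of peaks (vertical axis), summed over the windows of 10 CD8 T cell markers (left) and 9 B cell markers (right), in each of 8 tumour and 4 in vitro ATAC libraries. Tumour negative replicate 2 is the lowest bar of the CD8 panel at 474, and the 4 in vitro libraries are the highest bars of the B cell panel at 688 to 1132.

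The promoters of Lef1, Klf2 and Il7r hold starts that lay in peaks of different numbers of libraries. The outer Lef1 start lay in a peak of 3 of 12 libraries, a Lef1 start downstream of it (131112791) in 11, the Klf2 start in 12 and the Il7r start in 9. Each line holds the 250 bases before the RefSeq start, 5′ to 3′ along the gene (GRCm38.p6, the assembly that mm10 names), and capitals mark the KLF motif GGGTGNG on either strand.
Lef1 outer start, chr3:131110047-131110296, plus strand: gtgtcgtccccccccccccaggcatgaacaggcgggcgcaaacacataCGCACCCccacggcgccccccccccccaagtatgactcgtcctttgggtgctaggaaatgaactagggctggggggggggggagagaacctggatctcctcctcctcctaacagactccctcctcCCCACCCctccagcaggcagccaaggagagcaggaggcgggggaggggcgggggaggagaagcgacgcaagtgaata
Lef1 downstream start, chr3:131112541-131112790, plus strand: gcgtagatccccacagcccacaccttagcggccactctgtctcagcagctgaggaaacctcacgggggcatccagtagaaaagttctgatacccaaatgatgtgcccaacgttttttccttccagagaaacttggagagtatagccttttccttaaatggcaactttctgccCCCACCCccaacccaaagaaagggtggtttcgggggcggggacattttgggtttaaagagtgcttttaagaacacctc
Klf2, chr8:72318812-72319061, plus strand: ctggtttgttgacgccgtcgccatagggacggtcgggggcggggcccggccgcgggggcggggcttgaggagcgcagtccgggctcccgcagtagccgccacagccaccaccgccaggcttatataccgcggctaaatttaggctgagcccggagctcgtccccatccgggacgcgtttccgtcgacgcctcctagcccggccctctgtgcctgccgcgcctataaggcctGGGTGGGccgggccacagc
Il7r, chr15:9529877-9530126, minus strand: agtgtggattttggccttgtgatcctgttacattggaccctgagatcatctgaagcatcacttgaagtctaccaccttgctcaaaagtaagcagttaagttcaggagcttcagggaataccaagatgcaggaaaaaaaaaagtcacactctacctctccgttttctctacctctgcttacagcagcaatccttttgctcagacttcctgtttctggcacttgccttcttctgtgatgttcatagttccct
The KLF motif occurred in 2 places before the outer Lef1 start, in 1 before the downstream Lef1 start, in 1 before the Klf2 start and in 0 places before the Il7r start, and 27.5% of 32851 RefSeq promoters of the same length hold it. These bases were 66.4% G or C before the outer Lef1 start, 50.8% before the downstream one, 71.2% before the Klf2 start and 44.0% before the Il7r start. Of the 9 genes, 8 had at least 1 RefSeq promoter, with 16 starts in all. The TCF-LEF motifs CTTTGAT and CTTTGTT (8.06% of all promoters) were found only before the innermost Satb1 starts, at 51812184 and 51812054. These promoters overlap and share the same CTTTGTT site. The ETS motif CGGAAGT was found only before an inner Tcf7 start (4.92% of all promoters). The FOXO motif GTAAACA, the RUNX motif TGTGGT and the AP-1 motif TGANTCA were before none of the 16. Of all promoters, 3.17%, 14.0% and 6.75% hold these.

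Among the sorted cells in vitro, LC3-GFP positive cells held more RNA of Tcf7 and Ccr7 and less of Foxo1 and Klf2. The other 5 genes did not pass the test. Of the 9, 2 were higher and 2 lower, where 25.0% of all 12022 genes tested were called, 11.3% up and 13.6% down. Tcf7 and Ccr7 lay above the negative libraries in both positive ones, as 30.6% of all genes did, and Lef1, Bach2, Foxo1 and Klf2 below, as 31.0% did. Called changes and non-overlapping groups were thus common over the whole table. The changes were small: no member moved by more than 1.40-fold.

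Tcf7 stood at 42.8 and 42.8 CPM (counts over the TMM-scaled library size) in positive libraries, against 28.2 and 33.0 CPM in negative libraries. Both positive libraries lay above both negative ones, and the fold was 1.40 (log2 0.49, SE 0.09, edgeR's quasi-likelihood test, adjusted p = 0.000438). Ccr7, the chemokine receptor that draws T cells to lymph nodes, stood at 221 and 225 CPM in positive libraries, against 174 and 173 CPM in negative libraries. The groups did not overlap, with a fold of 1.29 (log2 0.36, SE 0.05, edgeR's adjusted p = 1.69e-05). In bulk samples, more cells of a type that express a gene and more of its RNA per cell cannot be told apart. The summed level of the B cell markers was also higher, at 15.0 and 13.5 CPM in positive libraries against 4.47 and 6.01 CPM in negative ones, with 5 of 6 tested markers higher. The CD4 T cell markers summed to 87.9 and 83.8 CPM in positive libraries against 117 and 107 CPM in negative ones, with 1 of 3 tested markers higher (Cd4, 4.40 and 3.39 CPM against 0.971 and 0.699 CPM) and 2 lower (Zbtb7b, log2 -0.48, and Gata3, log2 -0.38). Of the CD8 T cell markers, 6 of 10 were lower, with sums of 2911 and 2933 CPM in positive libraries against 3193 and 3206 CPM in negative ones. The part of these other cells in the result for Tcf7 and Ccr7 was not tested.

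Foxo1 stood at 173 and 170 CPM in positive libraries, against 197 and 196 CPM in negative libraries. The groups did not overlap, and the fold was 0.871 (log2 -0.20, SE 0.05, edgeR's adjusted p = 0.00444). Klf2, which keeps T cells quiescent and circulating, stood at 104 and 94.6 CPM in positive libraries, against 116 and 110 CPM in negative libraries, without overlap (log2 -0.19, SE 0.06, edgeR's adjusted p = 0.0278). Both calls rest on few libraries: Foxo1's was lost without positive replicate 1 (edgeR's adjusted p = 0.0504) or positive replicate 2 (0.0929), and Klf2's without positive replicate 2 (0.388) or negative replicate 1 (0.0611). Klf2 was also not called with DESeq2 (adjusted p = 0.133) or with library sizes alone as the scale (edgeR's adjusted p = 0.132). That scale gave 2242 genes higher and 1203 lower over the table, against 1362 higher and 1638 lower with TMM. Tcf7 and Ccr7 were called under every alternative run.

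Lef1 gave 184 and 167 CPM in positive libraries, against 190 and 197 CPM in negative libraries (log2 -0.14, edgeR's adjusted p = 0.0591). Bach2 gave 65.2 and 67.6 CPM in positive libraries, against 70.2 and 80.8 CPM in negative libraries (log2 -0.18, edgeR's adjusted p = 0.0630). For both genes the positive libraries lay below the negative ones but the change was not called. With the replicate number as a block both were called lower (edgeR's adjusted p = 0.0138 for Lef1 and 0.0201 for Bach2). Without negative replicate 1 both were called lower (edgeR's adjusted p = 0.00488 for Lef1 and 0.000892 for Bach2). Without positive replicate 2 Lef1 stood at log2 -0.07 (edgeR's adjusted p = 0.606), and without negative replicate 2 Bach2 stood at log2 -0.08 (0.462). Satb1, an organiser of chromatin loops, gave 297 and 292 CPM in positive libraries, against 281 and 296 CPM in negative libraries (log2 0.03, edgeR's adjusted p = 0.680). Il7r, the IL-7 receptor that supports memory cell survival, gave 134 and 129 CPM in positive libraries, against 132 and 139 CPM in negative libraries (log2 -0.05, edgeR's adjusted p = 0.572). Cd44 gave 175 and 176 CPM in positive libraries, against 167 and 179 CPM in negative libraries (log2 0.02, edgeR's adjusted p = 0.802). In these last 3 genes the groups overlapped.

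**Figure D2:**
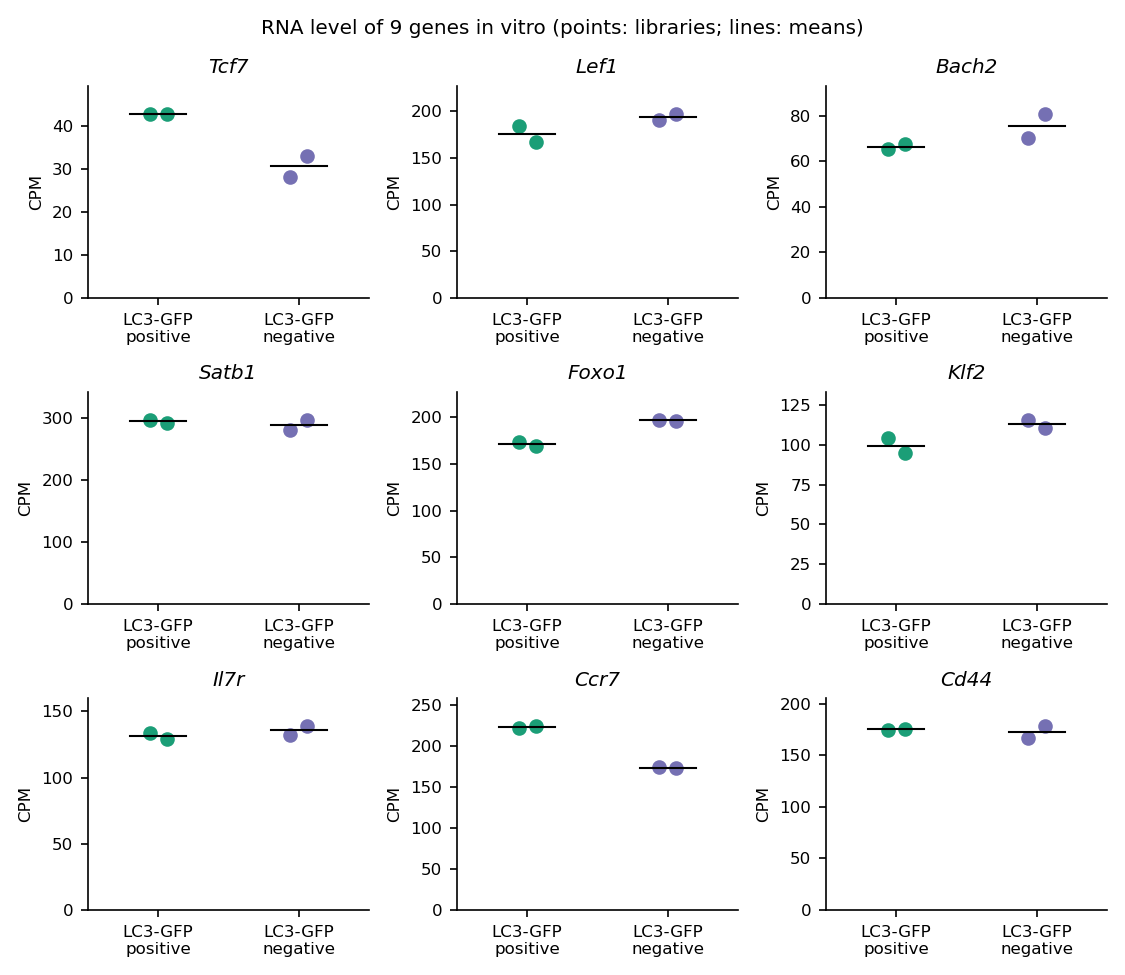
Points give the RNA level in CPM (vertical axis, from 0) of each gene in 2 LC3-GFP positive and 2 LC3-GFP negative in vitro libraries, and lines give group means. Tcf7 and Ccr7 lie higher in both positive libraries, Lef1, Bach2, Foxo1 and Klf2 lower, and Satb1, Il7r and Cd44 overlap. Lef1 and Bach2 were not called.

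The pathways around these genes were read from lists chosen with earlier results of these data known. Of 14 tested FOXO1 target genes outside the set, 7 were lower and 0 higher in positive cells (median log2 -0.28, against 0.00 over all genes). These and the following list counts stand beside 11.3% higher and 13.6% lower over all genes tested. Eomes, a T-box factor of effector and memory cells, stood at 34.5 and 34.3 CPM against 98.5 and 89.3 CPM in negative libraries (log2 -1.45, edgeR's adjusted p = 9.20e-11). Bcl2l11, which encodes the pro-apoptotic protein BIM, stood at 59.7 and 59.4 CPM against 114 and 115 CPM in negative libraries (log2 -0.95), and Irs2, an adaptor of insulin signalling, at 13.9 and 13.8 CPM against 20.3 and 21.6 CPM in negative libraries (log2 -0.60). Of 14 tested kinases and brakes upstream of FOXO1, 7 were lower and 1 higher (median log2 -0.17). Sgk1, a kinase that phosphorylates FOXO proteins, led at 16.4 and 17.5 CPM against 41.4 and 40.2 CPM in negative libraries (log2 -1.27), followed by Pik3cd (log2 -0.39) and Inpp5d (log2 -0.36), while Pdpk1 was the gene that rose (log2 0.15). Eomes is also on the list of natural killer cell markers, whose sum was 55.9 and 56.6 CPM in positive libraries against 153 and 143 CPM in negative ones, with 3 of 3 tested markers lower. Myeloid markers summed to 6.91 and 8.23 CPM in positive libraries against 14.2 and 14.1 CPM in negative ones, with 2 of 5 tested markers lower (Cd68, log2 -1.54, and Xcr1, log2 -1.22) and 1 higher (Mpeg1, 1.67 and 1.07 CPM against 0 and 0.0699 CPM). The part of these cells in the lists was not tested.

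Among 16 tested partners and opponents of BACH2, 4 were higher and 6 lower (median log2 -0.10). The AP-1 subunit Fosl2 fell to 104 and 102 CPM in positive libraries, against 202 and 218 CPM in negative libraries (log2 -1.03), with Maff (log2 -0.78) and Id2 (log2 -0.56) also lower. Batf3 (log2 0.57), Batf (log2 0.26) and Irf4 (log2 0.25), which act together at AP-1 sites, were higher. Of 15 tested TCF-LEF partners and Wnt pathway genes, 2 were lower and 0 higher (median log2 -0.13): the corepressor Tle3 (log2 -0.36) and the coactivator Bcl9 (log2 -0.33). Among 16 other memory and quiescence transcription factors, Id3 (log2 0.64), Myb (log2 0.26) and Tcf12 (log2 0.18) were higher and Eomes lower (median log2 -0.06). Of 23 tested receptors and their kinases, 5 were higher and 6 lower (median log2 -0.02). Il6ra (log2 1.41), Cxcr3 (log2 0.70) and Itga4 (log2 0.56) led the rises, and Jak1 (log2 -0.30), Il2rb (log2 -0.29) and Selplg (log2 -0.27) the falls.

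In tumour-derived cells, the Tcf7 and Cd44 windows held a larger share of the library's open chromatin than in vitro, and the other 7 windows were not called. Levels are peak-covered bases of the window per Mb (megabase) of the library's peaks, so a window's level is its share of the library's open chromatin and not a read density. The tests were limma's, over 4 group means, on log2 of the level plus 5. Over the 15436 windows, 22.7% were called higher and 12.4% lower in tumour, 35.0% in all, so 2 of 9 higher and 0 of 9 lower is a share near the background. No member's tumour libraries all lay above or all below the in vitro ones, where 7.9% of windows lay above and 4.9% below. The median of all windows was shifted by 0.18 toward tumour on the log2 scale, and the median of the 9 genes was 0.28.

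Tcf7 ranged over 187.6 to 206 per Mb in tumour positive libraries and 89.8 to 254 in tumour negative libraries, against 87.1 and 88.9 in positive and 126 and 129 in negative in vitro libraries. Tumour libraries averaged 195 ± 50.6 (SD, n = 8) and in vitro libraries 108 ± 23.0 (SD, n = 4), a log2 difference of 0.80 (SE 0.22, limma's adjusted p = 0.0217). The two-sided exact permutation test over 495 splits gave p = 0.00606, or 0.0337 after adjustment over all windows, of which 25.9% passed this test. Tumour negative replicate 2, at 89.8, was the 1 tumour library within the in vitro range; the other 7 lay at 184 to 254. The windows whose levels ran most like Tcf7's over the 12 libraries were those of Strada (r = 0.987), Septin9 (0.983) and Foxq1 (0.977). They were picked as the highest r among all tested windows. The part of library depth and cell makeup in these r values was not tested.

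Cd44 ranged over 217 to 239.7 per Mb in tumour positive libraries and 154 to 271 in tumour negative libraries, against 158 and 181 in positive and 154 and 155 in negative in vitro libraries. The means were 222 ± 41.5 (SD, n = 8) in tumour and 162 ± 12.6 (SD, n = 4) in vitro, a log2 difference of 0.42 (SE 0.15, limma's adjusted p = 0.0449). The exact permutation test gave p = 0.0303, or 0.0781 adjusted over all windows, which misses the threshold. Tumour negative replicates 1 and 2 lay within the in vitro range, and the other 6 lay above it. The windows most like Cd44's over the 12 libraries, picked in the same way, were those of Tmem177 (r = 0.960), Mcm6 (0.950) and Rbis (0.947).

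Klf2 averaged 71.2 ± 13.6 per Mb in tumour (SD, n = 8) and 54.9 ± 6.01 in vitro (SD, n = 4; log2 0.33, limma's adjusted p = 0.0717). Ccr7 averaged 107 ± 28.4 in tumour and 74.0 ± 13.5 in vitro (log2 0.47, limma's adjusted p = 0.0929). Neither was called, and without tumour negative replicate 2 all 7 tumour libraries of both genes lay above all 4 in vitro libraries, as for Tcf7; 28.9% of windows did so then, and 8.92% lay below. Satb1 averaged 260 ± 69.7 in tumour and 208 ± 42.5 in vitro (log2 0.28, limma's adjusted p = 0.259), and Lef1 289 ± 92.6 in tumour and 252 ± 53.0 in vitro (log2 0.13, limma's adjusted p = 0.553). Il7r averaged 69.4 ± 15.9 in tumour and 62.5 ± 5.64 in vitro (log2 0.12, limma's adjusted p = 0.583). Bach2 averaged 824 ± 85.0 in tumour and 829.6 ± 65.7 in vitro (log2 -0.01, limma's adjusted p = 0.921), and Foxo1 199 ± 49.4 in tumour and 197 ± 7.16 in vitro (log2 -0.04, limma's adjusted p = 0.884). In these 5 windows the tumour and in vitro ranges overlapped.

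These calls moved with single libraries. Without tumour negative replicate 2, 6 of the 9 windows were called higher in tumour (Tcf7, Lef1, Satb1, Klf2, Ccr7 and Cd44), beside 6443 windows over the genome in place of 3498 (42.2% higher, and 17.4% lower). Without any 1 of the 4 in vitro libraries, 0 of the 9 were called (limma's adjusted p of Tcf7 0.0652 to 0.0784). Cd44 was also not called without tumour positive replicate 1, 2, 3 or 4 (limma's adjusted p = 0.0600 to 0.0700) or tumour negative replicate 3 (0.0720) or 4 (0.0691). The scale mattered too: with no scaling by the library's total, 149 windows were higher and 2969 lower in tumour, the median shifted by -0.21, and Tcf7 kept a positive difference of 0.37 (limma's adjusted p = 0.145) while Cd44 stood at -0.01 (6200 to 11114 covered bases in tumour and 7352 to 11651 in vitro). With the same number of top peaks in each library, 1038 windows were higher and 1355 lower, the median shift was 0.01, and Lef1 (log2 1.46, limma's adjusted p = 0.000291), Satb1 (log2 1.01, 0.00535) and Il7r (log2 0.70, 0.00311) were called higher while Tcf7 (log2 1.00, 0.171) and Cd44 (log2 0.30, 0.348) were not. The 10 CD8 T cell marker windows behaved in the same direction under the main scale, with 5 higher and 0 lower (median log2 0.48), and of the 9 B cell marker windows 5 were lower and 0 higher (median log2 -1.54); the part of the B cell signal in the members' differences was not tested.

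**Figure D3:**
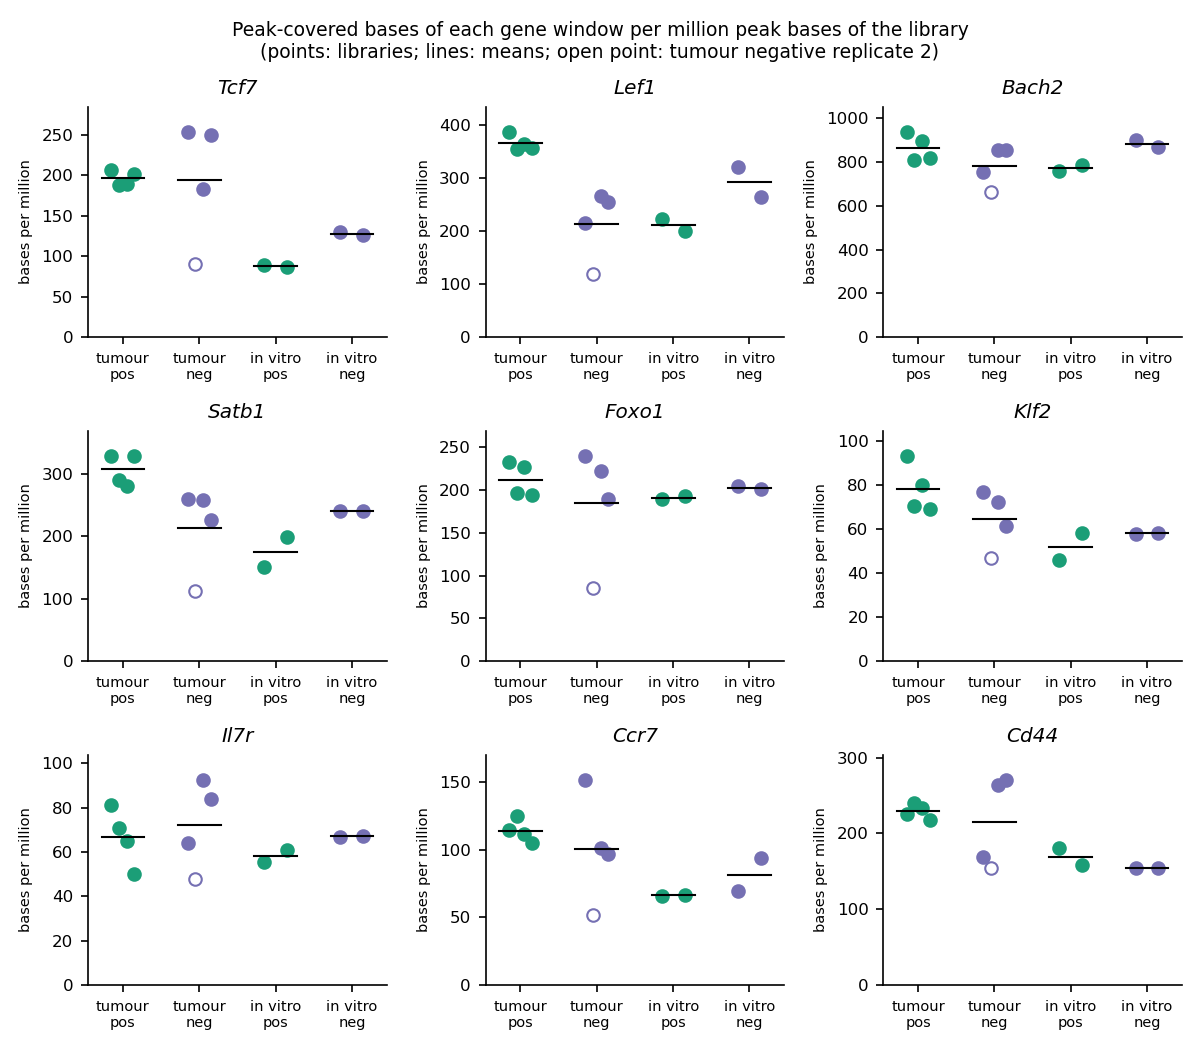
Points give the peak-covered bases of each gene window per Mb of the library's peaks (vertical axis, from 0) in 4 tumour positive, 4 tumour negative, 2 in vitro positive and 2 in vitro negative libraries, with lines at group means and an open point for tumour negative replicate 2. The open point is the lowest of the 12 in Lef1 at 120 and in Foxo1 at 85.7, and all 4 tumour positive points lie above all tumour negative points in Lef1 and Satb1.

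Within the LC3-GFP positive cells alone, the tumour windows of Tcf7 and Lef1 were higher than in vitro. Tcf7 averaged 196 ± 9.36 per Mb in tumour (SD, n = 4) and 88.0 ± 1.28 in vitro (SD, n = 2; log2 1.11, limma's adjusted p = 0.0306), and Lef1 365 ± 15.0 in tumour and 212 ± 15.8 in vitro (log2 0.77, limma's adjusted p = 0.0465). Over all windows 15.1% were higher and 9.98% lower in this comparison, 25.1% in all. Neither call held without any 1 tumour positive library or any 1 in vitro positive library, and without tumour negative replicate 2, 6 of the 9 were called higher, where 34.6% of all windows were higher and 14.8% lower. Within the negative cells 0 of the 9 were called, where 1.3% of windows were higher and 3.38% lower (4.68% in all), and without tumour negative replicate 2 it was 2, Tcf7 and Cd44, where 13.2% of all windows were higher and 9.93% lower. The difference between the populations in the tumour change was 1.28 for Lef1 (limma's adjusted p = 0.194), 1.04 for Satb1 (0.355) and 0.63 for Tcf7 (0.640) on the log2 scale, and was called for none of the 9 genes, where 0.557% of all windows were called (0.207% higher, 0.35% lower). Without tumour negative replicate 2 it was called for Lef1 (log2 1.03, limma's adjusted p = 0.00900) and Satb1 (log2 0.76, 0.0472), where 2.62% of all windows were called.

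Between the populations in tumours, the Lef1 window held a larger share of open chromatin in every LC3-GFP positive library than in any negative one. It ran at 387, 355, 363 and 355.5 per Mb in the 4 positive libraries, against 214, 120, 266 and 254 in the 4 negative libraries. The groups did not overlap (log2 0.82, SE 0.21), and limma's adjusted p was 0.0713. Satb1 ran at 329, 290.4, 281 and 328 per Mb in the positive libraries, against 260.1, 112, 258 and 225 in the negative ones. It too did not overlap (log2 0.58, SE 0.23, limma's adjusted p = 0.262), and for each gene the two-sided exact permutation test gave 0.0286, the smallest p that 70 splits allow. Among all windows 4.85% were higher and 2.86% lower without overlap, and 2.27% were called (0.998% higher, 1.28% lower), but none of the 9. Without tumour negative replicate 2, Lef1 and Satb1 still lay higher in positive libraries without overlap, as 6.51% of windows did. Lef1 was then called (log2 0.57, limma's adjusted p = 0.00792), where 4.12% of all windows were called. With windows extended by 20 kb Lef1 was also called (log2 0.95, limma's adjusted p = 0.0427), and with no scaling the difference was 0.61 (0.256).

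The other 7 windows overlapped between the populations in tumours, with log2 differences from -0.08 for Il7r to 0.29 for Foxo1. Without tumour negative replicate 2 the differences of Tcf7 (-0.20), Foxo1 (-0.03), Ccr7 (-0.01) and Cd44 (-0.01) were below 0. Tumour negative replicate 2 was the lowest of the 8 tumour libraries in all windows of the set.

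In vitro, 7 of the 9 windows were lower in positive cells without overlap. Both positive libraries lay below both negative libraries for Tcf7 (88.9 and 87.1 against 129 and 126 per Mb), Lef1 (223 and 201 against 321 and 265), Satb1 (151 and 199 against 240.4 and 240.3), Bach2, Foxo1, Il7r and Ccr7, while Cd44 was higher in both (181 and 158 against 154 and 155) and Klf2 overlapped. Over all windows 26.3% were lower and 19.2% higher without overlap. None of the 9 was called by limma, where 3 of 15436 windows were (0.0194%; 0.00648% higher, 0.013% lower), and with 2 libraries against 2 the smallest exact permutation p is 0.333. The CD8 marker windows were also lower in the positive in vitro libraries (602 and 611 against 784 and 854 per Mb) and the B cell marker windows higher (1129 and 1132 against 688 and 713), and the part of this in the members' order was not tested. For Tcf7 and Ccr7 the window was thus lower and the RNA higher in positive in vitro libraries, in separate sets of libraries. With the same number of top peaks in each library, the Tcf7 difference was 0.34 in place of -0.51.

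Summed over the 9 windows, tumour libraries held fewer peak regions. Tumour positive libraries held 58 to 72 of the 147 regions and tumour negative libraries 62 to 65, against 87 to 109 in vitro. Bach2 held 17 to 32 regions in tumour libraries and 36 to 46 in vitro. Foxo1 held 3 to 6 in tumour and 8 to 11 in vitro, and Il7r 1 to 2 in tumour and 3 in vitro. The share of all gene windows whose region counts do not overlap in this way was not computed. These ranges thus do not set the genes apart from others. The tumour and in vitro counts of Tcf7, Lef1, Satb1, Ccr7 and Cd44 overlapped, and Klf2 held 2 in every library. The peak lists were shorter too, at 27406 to 55171 peaks in tumour libraries against 49634 to 63761 in vitro, so the number of peaks moves with the setting. Of the 147 regions, 32 were in all 12 libraries (21.8%, against 21.2% of all regions) and 42 in no tumour library (28.6%, against 24.1%). In all 4 in vitro libraries and 0 of 8 tumour libraries were 11 regions, 7.48%, where 4.76% of all regions were; in all 8 tumour libraries and 0 of 4 in vitro were 0, where 0.173% of all regions were. The pattern that defines the 11 fixes Fisher's exact p at 0.00202 (adjusted p = 0.0191), so the test gives no support beyond the counts. It called the same 4504 and 164 regions, 10.2% lower and 0.372% higher in tumour, of the 44076 regions tested. Among the 74 member regions tested it called 11 lower and 0 higher. With equal numbers of peaks the same counts were 2 and 2 of 88 member regions, where 2.41% and 0.491% of 53126 regions were, so the share found only in vitro was then near the background. Without tumour negative replicate 2 they were 14 and 1, where 8.64% and 0.614% of all regions were.

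Bach2, the longest window at 352 kb, held 64 regions, and 5 of the 11 lay in it, at 23.2, 175, 199, 223 and 264 kb from its outer start. Lef1 held 3 of the 11, at chr3:131136578-131137870, chr3:131168850-131169775 and chr3:131172276-131173285, which are 26.9, 59.0 and 62.5 kb inside the gene. Satb1 (chr17:51802422-51803467, 30.4 kb from the start), Foxo1 (chr3:52284511-52285155, 16.5 kb) and Cd44 (chr2:102852985-102853780, 48.3 kb) held 1 each, and all 11 lay in gene bodies away from the start sites. Of the Bach2 regions, 12 were held by tumour negative replicate 2 alone among the tumour libraries, against 1 each by 2 other tumour libraries. Bach2 is also used by B cells, and the part of the B lineage signal in the regions found only in vitro was not tested.

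The region that ran most strongly the other way was at Cd44, chr2:102851247-102852390, 49.9 kb from the start and next to the one found only in vitro. It was in 4 of 4 positive and 3 of 4 negative tumour libraries, all but negative replicate 2, and in 0 of 4 in vitro libraries (Fisher's exact p = 0.0101, adjusted p = 0.0530). At Ccr7, chr11:99147326-99148144 was in 3 positive and 2 negative tumour libraries and 0 of 4 in vitro. At Tcf7, 7 regions were found, of which 2 were in all 12 libraries, at the start and 17.4 kb into the gene; another, 8.53 kb in, was in 8 of 8 tumour and 3 of 4 in vitro libraries. The region 21.8 kb in was in 2 of 8 tumour libraries, both negative, and 4 of 4 in vitro. Klf2 had 2 regions, both in all 12 libraries.

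**Figure D4:**
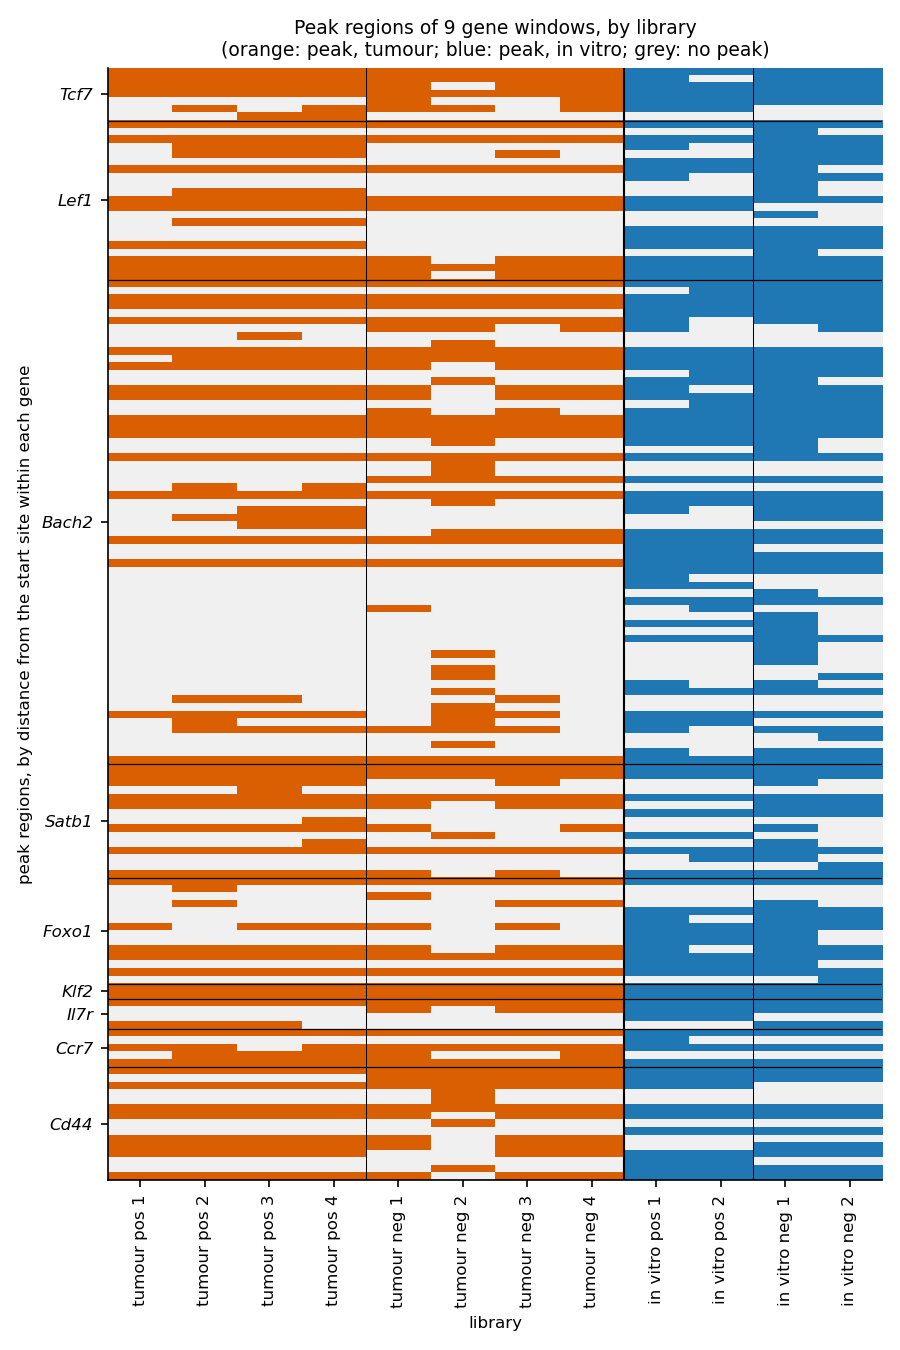
Each row is 1 of 147 peak regions, sorted by distance from the outer start site within each of 9 genes, and each column 1 library; orange marks a peak in a tumour library, blue a peak in an in vitro library and grey no peak. In vitro columns hold 87 to 109 regions and tumour columns 58 to 72, and the Bach2 rows contain 12 regions that only tumour negative replicate 2 holds among the tumour columns.

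Lef1 held 21 regions, and single regions were not tested between the tumour populations. Region chr3:131190493-131191710, 80.8 kb into the gene, was in 4 of 4 positive and 0 of 4 negative tumour libraries and in all 4 in vitro libraries. It is the 1 region of the set in all positive and no negative tumour libraries, where 0.689% of the 71837 regions found in tumours were. The regions at 15.9, 43.6 and 57.5 kb were each in 3 of 4 positive and 0 of 4 negative tumour libraries, and the one at 24.5 kb in 3 of 4 positive and 1 of 4 negative. In each of these 4, the positive library without the peak was replicate 1, which has the fewest peaks of all libraries (27406). Without that library, 5 regions of the set were in all positive and no negative tumour libraries, 4 at Lef1 and 1 at Bach2. Of all regions found in tumours, 1.66% then had this pattern. Replicate 1 is named here because it lacked these peaks, so the rise follows from that choice. Without any 1 of the other tumour libraries the count was 1 or 2, where 0.751% to 1.21% of all regions had the pattern. In all, positive tumour libraries held 9, 13, 13 and 13 of the Lef1 regions, against 8, 6, 9 and 8 in negative tumour libraries. The positive libraries had 27406 to 37477 peaks and the negative ones 33704 to 55171, or 33704 to 41435 without negative replicate 2. With the same number of top peaks in each library, 4 of 79 member regions were in all positive and no negative tumour libraries. Lef1, Bach2, Satb1 and Cd44 held 1 each, where 1.7% of all regions found in tumours had this pattern. Beyond that run, the part of peak number in the Lef1 counts was not tested.

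The opposite pattern, all negative and no positive tumour libraries, was found at 2 regions, where 1.04% of regions in tumours were. One was at Cd44 (chr2:102894806-102896657, 5.94 kb from the start) and one at Bach2 (chr4:32374806-32376871, 137 kb), and both were in all 4 in vitro libraries. In vitro, 9 of the 126 regions found there were in both positive and no negative libraries, where 8.05% of all regions were, and 5 in both negative and no positive, where 3.27% were.

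**Figure D5:**
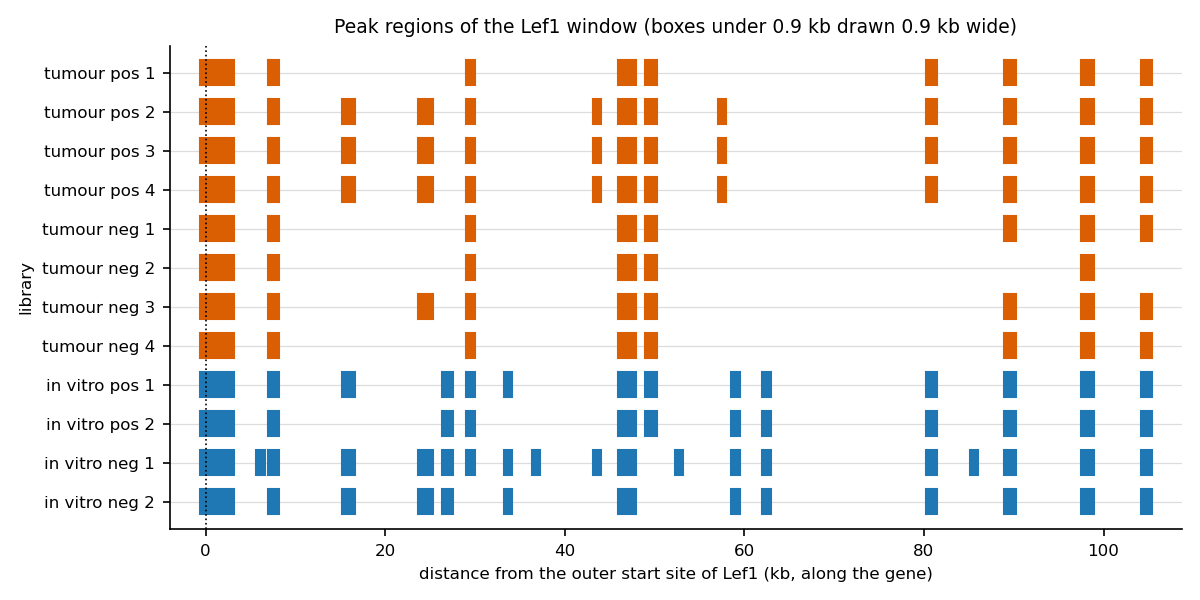
Boxes mark the peak regions of the Lef1 window that each of 12 libraries held, by distance in kb from the outer start site along the gene (horizontal axis). The region at 80.8 kb is present in the 4 tumour positive and the 4 in vitro libraries and in none of the tumour negative ones, and those at 26.9, 59.0 and 62.5 kb are present in vitro alone.

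Peaks at the start sites differed between starts. A merged region over a start was found in all 12 libraries for each of the 9 genes, which does not place the start base in each library's peak. The outer start base itself lay in a peak of all 12 libraries for 6 of the 9 genes (Tcf7, Bach2, Satb1, Foxo1, Klf2 and Ccr7), where 46.0% of 19857 genes had this. It lay in a peak of 9 libraries for Il7r, 8 for Cd44 and 3 for Lef1. Of the 4 RefSeq starts of Lef1, the outer one and the next, at 131110323, each lay in a peak of 0 of 8 tumour and 3 of 4 in vitro libraries. The start at 131112791 lay in a peak of 7 of 8 tumour and 4 of 4 in vitro libraries, and the innermost, at 131156294, in 2 of 8 tumour and 1 of 4 in vitro libraries. The inner RefSeq start of Bach2 and both inner Satb1 starts with a TCF-LEF motif lay in no peak.

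In the lists around the set, tumour against in vitro, most called windows were higher. Of 24 windows of receptors and their kinases, 7 were higher and 0 lower (median log2 0.17), led by Il6st (80.2 ± 26.3 per Mb in tumour, 43.0 ± 14.8 in vitro, log2 0.83), Il15ra (log2 0.76) and Jak1 (log2 0.71). Of 17 BACH2 partners and opponents, 6 were higher and 1 lower (median log2 0.26), with Junb (102 ± 31.9 in tumour, 50.9 ± 3.78 in vitro, log2 0.87), Tbx21 (log2 0.79) and Irf4 (log2 0.76) higher and Zeb2 lower (log2 -0.46). Of 15 genes upstream of FOXO1, 5 were higher and 0 lower (median log2 0.16), Sgk1 most (264 ± 36.4 in tumour, 163 ± 24.9 in vitro, log2 0.68). Of 14 FOXO1 targets, 3 were higher and 0 lower (median log2 0.23), the largest being Tnfsf10 (log2 0.64). Of 17 TCF-LEF partners, 3 were higher and 1 lower (median log2 0.11), with Tle3 (log2 0.53) and Bcl9 (log2 -0.43) at the ends. Of 16 other memory factors, 4 were higher and 1 lower (median log2 0.21): Klf3 (log2 0.69), Foxo4 (log2 0.60) and Myb (log2 0.57) led, against Tcf12 (188 ± 62.2 in tumour, 329 ± 13.4 in vitro, log2 -0.87). These shares stand beside the 22.7% higher and 12.4% lower over all windows.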

How the data were processed

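The authors deposited a table of estimated counts per gene (RNA) and 2 tables of peaks (ATAC, in vitro and tumour). The submitters' processing notes name STAR, DESeq2 and Partek for RNA and cutadapt, BWA, MACS2 and Partek for ATAC, with mm10; versions, strandedness and any shift for the Tn5 cut are not given in the sources used here. Per the file headers, each deposited peak carries a library name, its position in bases, a pileup signal, a fold enrichment, and -log10 of the p-value and q-value; peaks were therefore called per library. These are the authors' values, and only -log10 q was used, to rank or filter peaks. Of the columns of per-sample values, 0 were left unmapped.

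Members are all 9 genes in every comparison. From each other list, up to 3 called genes with the largest change in each direction were named, with any called marker. Members and lists were chosen with earlier results of these data known.

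Estimated counts were rounded, filtered with filterByExpr, scaled by TMM and tested with edgeR 4.0.16 (glmQLFit, glmQLFTest), calling adjusted p under 0.05 (Benjamini-Hochberg); 12022 genes were tested, and totals were 14567540 to 17557628. Rn45s took 1.43% and 1.51% of positive and 3.20% and 3.58% of negative counts. Windows were RefSeq protein-coding gene bodies ± 2 kb (GRCm38.p6, 21887 genes). A window with a peak in at least 3 of 12 libraries was tested with limma 3.58.1 on log2(covered bases per Mb of peaks + 5), with a trend. Peaks sharing at least 1 base were merged, and a region in 2 to 10 libraries was tested by Fisher's exact test. ATAC read depth is unknown from peak lists. Both fits were tested on simulated data and the merging was checked with bedtools. Same-numbered samples did not deviate together (r = 0.05 for RNA; -0.11 to 0.12 for ATAC). R 4.3.3, DESeq2 1.42.0 and Python 3.11.15 were used. Alternatives were other scalings, pseudocounts, peak thresholds, windows and tools, the replicate number as a block, each library left out and, chosen after seeing the data, the gene bounds of the RNA table.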

Additional observations from a re-analysis of the deposited data

How the results depend on the processing

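Counts of members called in RNA (2 higher, 2 lower) moved to 1 lower with DESeq2 and with library sizes alone and to 4 lower with the replicate block, and to 0 to 3 lower with 1 library left out, which leaves a lone library assumed to vary like the other groups (so too for ATAC in vitro). Genes higher and lower were 705 and 983 with DESeq2, and 2242 higher with library sizes alone; with 1 library left out they were 683 to 1615 and 1039 to 1836. With 2 replicates a group, the correlation of 0.05 cannot settle whether the replicate numbers pair the RNA samples. Under the replicate block 0 of the 9 windows were called in positive against negative, in tumours or in vitro, as without it. The block was not run for tumour against in vitro. Il7r RNA turned to 0.017 with library sizes alone, and with 1 library left out Satb1 ran from -0.0084 to 0.070 and Cd44 from -0.030 to 0.074. For tumour against in vitro windows (2 higher, 0 lower), 1 was higher with peaks per 10000, with no extension and with 20 kb, and 0 with no scaling; 1 was lower with peaks per 10000, no scaling and the RNA table's gene bounds; with 1 library left out 0 to 6 were higher. Windows higher over the genome were 1038 with equal numbers of peaks, 149 with no scaling and 5406 with peaks per 10000, and 2969 lower with no scaling; with 1 library left out they were 779 to 6443 higher and 928 to 2652 lower. Directions turned for Lef1 (-0.051 by peaks per 10000, -0.29 unscaled), Satb1 (-0.15 unscaled), Klf2 (-0.085 unscaled), Cd44 (-0.0072 unscaled), Il7r (-0.36 by peaks, -0.31 unscaled, -0.38 with 20 kb), Bach2 (0.13 with equal numbers, 0.090 at -log10 q of at least 5) and Foxo1 (0.27 and 0.11); with 1 library left out, Bach2 ran from -0.036 to 0.024 and Foxo1 from -0.12 to 0.12. Within positive cells (2 higher), 1 was higher with a pseudocount of 1, a peak in 1 library or more, -log10 q of at least 5 and no extension, 0 with no scaling, and 0 to 6 with 1 library left out. Within negative cells (0), 2 were higher with equal numbers and 1 was lower by peaks per 10000, Lef1 and Satb1 turned to 0.98 and 0.55 with equal numbers, and with 1 library left out 0 to 2 were higher and Satb1 ran from -0.35 to 0.041. Positive against negative in tumours (0) gave 1 higher with 20 kb and 0 to 1 with 1 library left out; Tcf7 turned to -0.070 unscaled and -0.12 with equal numbers, Bach2 to -0.044 unscaled and -0.018 with the RNA table's bounds, Il7r to 0.061 by peaks and 0.19 with 20 kb, Cd44 to -0.056 unscaled, and with 1 library left out Tcf7 ran from -0.20 to 0.28, Foxo1 from -0.032 to 0.45, Il7r from -0.25 to 0.043, Ccr7 from -0.0065 to 0.49 and Cd44 from -0.0061 to 0.26. With equal numbers, Tcf7 in vitro turned to 0.34 and the difference between populations to -0.46. Regions in vitro alone (11) were 2 with equal numbers and 6 at -log10 q of at least 5; in tumours alone (0), 2 with equal numbers and 0 to 1 with 1 library left out; positive alone in tumours (1), 4 with equal numbers and 1 to 5 with 1 library left out; negative alone (2), 0 with equal numbers and at -log10 q of at least 5, and 1 where peaks must cover 25% of the region. The cause of these moves was not tested. ATAC read depth is unknown, so a missing peak does not show closed chromatin.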
